A study of Mus musculus with 2 samples.

Results

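Lactate-only gene-end peaks are places near the start or end of a protein-coding gene where H4K12la, the lactylated form of histone H4 at lysine 12, was called in the lactate library with no call at the same place in the control library. Each peak had to meet by at least 1 bp the window of 1 kb on either side of an annotated end of exactly 1 protein-coding gene, on chromosomes 1 to 19 or X, and to share no base with a control peak. Of 39727 lactate peaks, 4308 met the rule, or 10.8%. They lay at 3710 of 21631 protein-coding genes (17.2%). For comparison, peaks of either list that met a peak of the other, called shared here, were at 4421 genes (20.4%), and control peaks that met no lactate peak, called control-only, at 1155 (5.34%). The peaks were chosen by the presence of a lactate call and the absence of a control call, so both are a description here and not a result.

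The mark was mapped in Neuro2a, a mouse neuroblastoma line that the labels describe as mouse brain tumor cells, grown in DMEM with 10% fetal bovine serum on collagen I. The control cells were given NaCl, at a concentration the labels do not state, and the treated cells 25 mM lactate, and both libraries were made by CUT&Tag with an antibody to H4K12la. In CUT&Tag an antibody brings a transposase to the marked chromatin, which cuts and tags the DNA beside it. Each group was 1 library of 1 cell line, so no value below has a replicate check, no test between groups was made, and intervals cover counting error only. A higher signal in more cells and a stronger signal per cell cannot be told apart in these bulk libraries.

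Lactylation adds a lactyl group to lysines, and its supply is tied to the lactate made by glycolysis. Acetylation and lactylation of histone tails are both known from promoters, the stretches around the 5′ end of a gene where transcription starts. Many mouse promoters lie in CpG islands, which are rich in C and G and in the CG dinucleotide, while promoters of genes used in few tissues are often poor in it.

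The promoters of 6 genes are printed to show the range of sequence that lay under or beside these peaks. They are RefSeq sequences of the mm10 assembly (GRCm38.p6), from 250 bases before to 50 bases after a listed start, all on the plus strand and read 5′ to 3′, with each CG dinucleotide in capitals. Sfr1, Trim24, Zfp809 and Mtmr6 were among the 10 genes with the highest fold, Sdhb had the highest pileup of a named gene, and Pomc carried its peak at the other end of the gene. Sfr1 lies at chr19:47731506-47731805, Trim24 at chr6:37870561-37870860, Sdhb at chr4:140961021-140961320, Zfp809 at chr9:22225453-22225752, Mtmr6 at chr14:60264955-60265254 and Pomc at chr12:3954695-3954994.
Sfr1: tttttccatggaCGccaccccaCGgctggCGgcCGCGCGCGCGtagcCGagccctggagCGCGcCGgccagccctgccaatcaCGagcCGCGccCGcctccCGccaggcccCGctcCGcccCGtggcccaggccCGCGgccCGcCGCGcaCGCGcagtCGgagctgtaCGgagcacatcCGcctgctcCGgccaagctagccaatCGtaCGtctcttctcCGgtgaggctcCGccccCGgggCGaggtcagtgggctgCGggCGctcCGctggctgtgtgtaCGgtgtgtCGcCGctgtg
Trim24: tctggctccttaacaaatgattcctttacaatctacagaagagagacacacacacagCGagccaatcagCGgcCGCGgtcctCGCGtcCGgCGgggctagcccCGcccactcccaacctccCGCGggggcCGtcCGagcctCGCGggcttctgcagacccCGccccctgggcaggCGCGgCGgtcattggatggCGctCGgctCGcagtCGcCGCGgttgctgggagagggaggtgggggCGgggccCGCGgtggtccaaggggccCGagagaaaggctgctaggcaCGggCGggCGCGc
Sdhb: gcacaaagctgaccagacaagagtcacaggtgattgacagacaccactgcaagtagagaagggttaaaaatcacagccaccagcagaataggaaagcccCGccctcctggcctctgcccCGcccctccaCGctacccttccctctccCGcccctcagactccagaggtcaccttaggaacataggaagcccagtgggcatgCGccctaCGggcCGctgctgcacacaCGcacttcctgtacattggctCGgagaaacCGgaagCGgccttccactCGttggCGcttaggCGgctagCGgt
Zfp809: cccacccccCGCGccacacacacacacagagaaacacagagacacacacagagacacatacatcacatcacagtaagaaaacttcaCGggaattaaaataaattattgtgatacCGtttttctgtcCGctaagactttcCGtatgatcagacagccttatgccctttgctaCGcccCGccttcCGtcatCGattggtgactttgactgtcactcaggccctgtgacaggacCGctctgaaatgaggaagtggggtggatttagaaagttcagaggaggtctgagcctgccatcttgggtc
Mtmr6: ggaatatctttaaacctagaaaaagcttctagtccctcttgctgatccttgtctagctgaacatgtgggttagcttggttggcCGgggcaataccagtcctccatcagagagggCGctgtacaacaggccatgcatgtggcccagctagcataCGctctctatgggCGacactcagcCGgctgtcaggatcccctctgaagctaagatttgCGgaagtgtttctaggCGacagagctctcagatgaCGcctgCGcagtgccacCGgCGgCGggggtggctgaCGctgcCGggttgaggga
Pomc: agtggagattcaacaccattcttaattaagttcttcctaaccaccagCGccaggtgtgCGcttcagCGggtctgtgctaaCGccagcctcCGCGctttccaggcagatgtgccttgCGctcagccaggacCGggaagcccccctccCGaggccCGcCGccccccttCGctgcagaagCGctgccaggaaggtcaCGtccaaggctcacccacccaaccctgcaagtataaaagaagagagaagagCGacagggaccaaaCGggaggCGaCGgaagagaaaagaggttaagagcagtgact

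The Sfr1 promoter was the richest of the 6, with 43 CG dinucleotides and 75% G and C, and the peak covered all 300 bases. Trim24 held 33 and Sdhb 15, with 294 and 296 bases under their peaks. Mtmr6 held 14 CG dinucleotides and Zfp809, at 49.3% G and C, held 11, with 240 and 147 bases under their peaks. The median of all promoters was 14, so a high fold was also seen at genes whose promoter was not rich in CG. The Pomc promoter held 18, and none of its bases lay under the Pomc peak.

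The peaks lay mostly at the 5′ end. Strand was known for the genes of 3391 peaks, and 3064 of these were at the 5′ end, or 90.4% (95% interval 89.3% to 91.3%). The other 327 were at the 3′ end. Among shared lactate peaks 95.3% were at the 5′ end, and among control-only peaks the share was 65.3% (62.2% to 68.3%). Seen from the gene, a 5′ peak was called in 2688 of 17274 genes with a known strand (15.6%) and a 3′ peak in 317 (1.84%). Of the lactate peaks at one 5′ end 46.0% met no control peak, and of those at one 3′ end 64.6%. For 55 peaks both ends of the gene were in reach, and the nearer end was taken.

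At the 5′ end, the summit, the highest point of the peak, lay at a median of 128.5 bp into the gene. The quartiles were 68 bp before the end and 515 bp inside it. In all, 44.3% lay within 200 bp of the end, against 58.3% for shared and 29.2% for control-only peaks. The gene side held 67.7% of the summits. The fullest 100 bp bin was the first one inside the gene, with 420 summits, or 13.7%, and the same bin was the fullest for shared peaks (19.6%) and for control-only peaks (9.64%). Lactate-only summits were thus fullest at the same place as shared ones and more spread on both sides. The rule barred overlap with a control peak, which bears on where these summits can lie, so the spread is only described. At least 300 bp inside the gene lay 36.6% of them, against 26.8% of shared summits, and at least 300 bp before the end 9.27% against 4.61%.

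**Figure D1:**
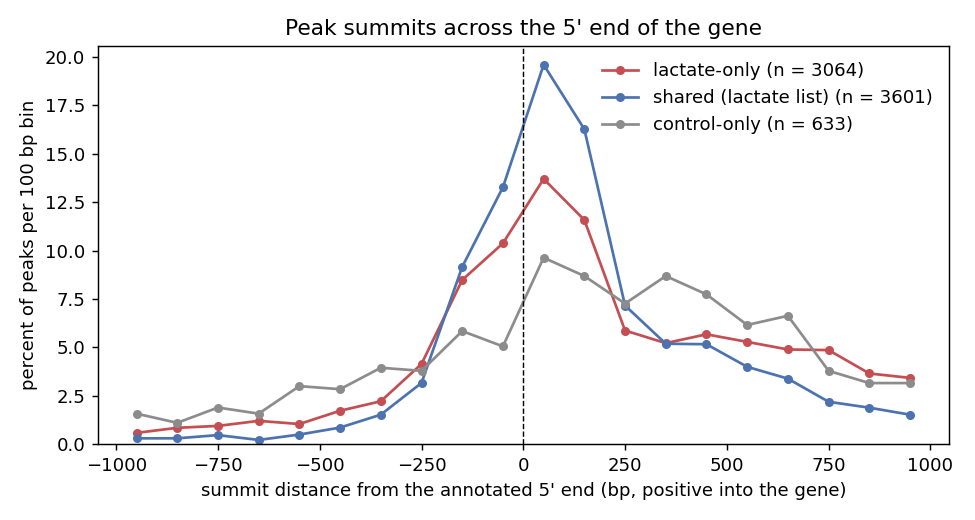
Percent of peak summits per 100 bp bin (y axis) by distance from the annotated 5′ end in bp (x axis, positive into the gene), for 3064 lactate-only, 3601 shared and 633 control-only peaks. All 3 lines are highest in the first bin inside the gene, at 13.7%, 19.6% and 9.64%, and the lactate-only line lies between the other two there.

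Counted over both ends, 1399 peaks ran across the annotated end (32.5%), 2073 lay inside the gene (48.1%) and 836 outside it (19.4%). Shared lactate peaks ran across the end in 65.0% of cases and control-only peaks in 9.50%. The 2 ends differed. Of the 5′ peaks 1102 crossed the end, 1447 lay inside and 515 outside, while of the 3′ peaks only 16 crossed the end, 153 lay inside and 158 outside. Of the 3′ peaks, 3 had their summit within 500 bp of a start listed for the same gene, so an internal start in the table seldom lay under them. A noncoding gene had an end within 1 kb of 653 peaks, or 15.2%, so the protein-coding gene was not the only annotated neighbour of those.

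Peaks were narrow. The median width was 220 bp, with quartiles of 160 and 378 bp and a range of 100 to 1360 bp. Shared peaks had a median of 556 bp and control-only peaks of 164 bp. A wide peak has more bases with which to meet a control peak, so width bears on the rule and this order is only described. At least 500 bp was reached by 527 peaks, or 12.2%, and at least 1000 bp by 19. Peaks across the end were the widest, with a median of 374 bp, against 195 bp inside and 172 bp outside the gene.

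**Figure D2:**
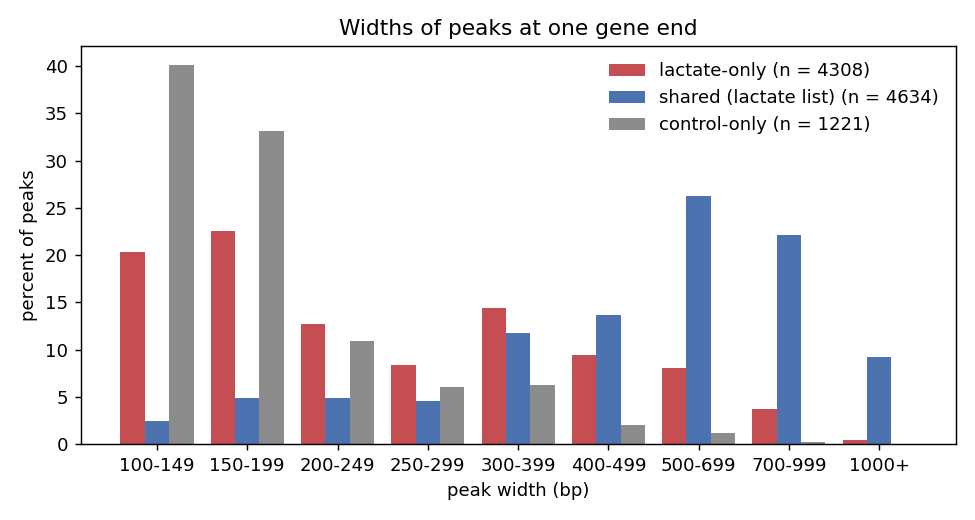
Percent of peaks (y axis) by width class in bp (x axis; the classes are of unequal span) for 4308 lactate-only, 4634 shared and 1221 control-only peaks at one gene end. Widths under 200 bp make up 42.9% of lactate-only peaks, and the widest classes belong mostly to shared peaks.

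The widest named peak, 1360 bp, began 296 bp inside Ppm1b, which encodes a metal-dependent protein phosphatase. Cdk17, a cyclin-dependent kinase of the PCTAIRE group, followed with 1349 bp. Skil had 1346 bp and encodes SnoN, a repressor of TGF-beta signalling. Rnf138, a ubiquitin ligase of DNA end resection, had 1275 bp, and Foxn2, a forkhead factor, had 1210 bp. Top1, the gene of DNA topoisomerase I, had 1200 bp with the summit 9 bp inside the gene. The fold in this group ran from 3.55 at Skil to 5.19 at Top1. These peaks span only 1200 to 1360 bp, so they cannot show whether width and fold go together. Over all lactate-only peaks, those across the end were the widest and had the highest median fold. It was 3.63, against 3.17 inside and 3.08 outside the gene.

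Fold is the authors' own value for each peak, the ratio of the summit to the local background, read here with a small constant added to both. The library that gave the background is not stated in the sources used here. The median fold was 3.25 with a range of 1.85 to 7.88. The summit pileup, the number of overlapping reads recovered from fold and p, had a median of 19 and a range of 11 to 56. The median of shared peaks was 26 reads with lactate and 16 with NaCl, and that of control-only peaks was 14. Under the shared peaks the median local background also differed, at 5.66 reads with lactate and 3.30 with NaCl. Their median fold was 3.97 with lactate and 3.79 with NaCl. No peak was called below 11 reads in either library, and 477 lactate-only peaks, or 11.1%, stood at 13 reads or fewer. A control signal under that limit would have gone uncalled, so lack of a control peak does not show lack of the mark.

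The 10 named genes with the highest fold all had a peak across the end, 8 at the 5′ end and 2, Fbxo47 and Lman1, in genes of unknown strand. Sfr1, a factor of homologous recombination, led with a fold of 7.39 and 29 reads (19.4 to 41.6). Ccdc82 followed at 7.04 and Zfp809, a zinc finger protein that silences retroviral DNA in mouse stem cells, at 6.90. Trim24, a chromatin reader with a bromodomain, had 6.57. Rcn2, a calcium-binding protein of the secretory pathway, had 6.52, and Spata7, a protein of the photoreceptor cilium, had 6.40. Fbxo47, an F-box protein of meiosis, had 6.36. Pin4, a prolyl isomerase, had 6.31 and lay 1253541 bp from the nearest control peak. Mtmr6, a phosphoinositide phosphatase, had 6.25, and Lman1, a cargo receptor between the endoplasmic reticulum and the Golgi, had 6.20. These genes do diverse work, and their 95% intervals for pileup all overlapped.

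High fold and high pileup picked different genes. Sdhb, the iron-sulfur subunit of succinate dehydrogenase, had 44 reads (32.0 to 59.1) but a fold of 3.36, because the fold divides by a local background of 12.4 reads there. Cd2bp2, a splicing factor, had 40 reads and Plpbp, which handles pyridoxal phosphate, 39. Ankrd52, a subunit of protein phosphatase 6, and Arpc1b, a subunit of the actin-nucleating Arp2/3 complex, had 38 each. Mkln1, a part of the CTLH ubiquitin ligase, had 37. The local background under these ran from 8.12 to 12.4 reads, and over all lactate-only peaks its median was 4.74.

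The strongest calls were wider and more often crossed the gene end. A −log10 q of at least 5 was reached by 772 peaks, or 17.9%, at 765 genes (3.54%). Of these 97.0% were at the 5′ end where strand was known, 65.3% ran across the end, and the median width was 435.5 bp. Below that threshold the shares were 88.9% and 25.3% and the width 196 bp. A −log10 q of at least 10 was reached by 34 peaks, of which 30 ran across the end. Width and q both come from the signal and are not independent measures.

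The gap to the nearest control peak had a median of 15306.5 bp, and 2572 peaks, or 59.7%, had none within 10 kb. For control-only peaks, 46.4% had no lactate peak within 10 kb. The rule left out every peak that overlapped a control peak, and the gap at other places of the genome was not measured. At the other extreme 942 peaks, or 21.9%, had one closer than 1 kb, and 298 closer than 200 bp. The 942 near ones crossed the end in 13.3% of cases and the other 3366 in 37.8%. At the 5′ end the summits of 703 near ones had a median of 470 bp into the gene, and those of 2361 others a median of 99 bp. The rule keeps a peak off the bases of its near control peak, so it bears on these positions and they are only described. The local background was 5.82 reads in the near ones and 4.42 in the others, and its part in the difference was not tested. At the very limit of the rule, the peaks at Sfxn3 and Rnps1 touched a control peak with a gap of 0 bp, while those at Olfr699 and Grk3 overlapped one by 1 bp and were left out. Likewise Ripor1 and Polr2b peaks lay 1000 bp from the gene end and were kept, and those at Tcte2 and Stag2 lay 1001 bp away.

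By gene, 2674 of the 3710 had no control peak at either end and 1036 had one. The rule barred overlap with a control peak, and control peaks at the ends or in the bodies of all genes were not counted. These counts are therefore only described. A shared peak accompanied the lactate-only peak in 754 of the 3710 genes, and a control-only peak did so in 259. Over all protein-coding genes the shares were 20.4% and 5.34%. Including the gene body, 1805 genes had no control peak at all, and 869 had one only in the body. The lactate-only peak was thus not the only call at the end of many of these genes. Genes named only by a Gm number or a Rik symbol were 136 of the 3710, and their share over all genes was not counted.

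A single lactate-only peak was found in 3159 genes, 2 in 506, 3 in 43 and 4 in 2 genes. Of the 506 with a pair, 434 had both at the same end, with a median distance of 592.5 bp between summits, and 210 of these pairs sat on either side of the end. Cited2, which binds the coactivators CBP and p300, had 4 peaks in and near its 2447 bp, with 21, 27, 20 and 19 reads. The first lay 296 bp upstream, the other 3 inside the gene, and none crossed the start. Klhl29, a kelch-like protein whose gene spans 298218 bp, had all 4 summits within 1021 bp of its 5′ end, with 17 or 18 reads each. Among those with 3, Slc36a1, a lysosomal amino acid transporter, and Mkln1 had 2 at the 5′ end and 1 at the 3′ end. Myh10, a nonmuscle myosin, and Zfp180 had all 3 at the 5′ end. Peaks at the same end of a gene lie close together and are not independent of each other.

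The genes covered a wide range of lengths. Their median was 22630 bp, against 17329 bp for all protein-coding genes, 28486 bp for genes with a shared lactate peak and 18360 bp for genes with a control-only peak. Genes under 2 kb carried a lactate-only peak in 5.00% of cases, 122 of 2441. Odorant receptor genes made up 959 of them, and without those the share was 7.62%. From 10 kb up to 200 kb the share stayed between 19.2% and 20.7%, and it was 18.6% above that. The share was thus low in the short genes and nearly level from 10 kb on. Among peaks with a −log10 q of at least 5 the longest genes were Lpp, a focal adhesion protein, at 599229 bp, the neural and cartilage factor Sox6 at 569905 bp, and the formin Diaph3 at 485891 bp. The shortest was the histone gene H4c11 at 423 bp, with the peak 599 bp upstream. Its sequence has near-identical copies among the histone H4 genes, and how the authors placed reads that match several copies is not given in the sources used here. Olfr90 at 1046 bp and Cysrt1 at 1079 bp were next.

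Promoters of genes with a 5′ lactate-only peak were rich in CG, to the same median as shared promoters. The promoter of a gene did not always lie under its peak. At the 5′ end, 72.2% of lactate-only summits (2213 of 3064) lay within 500 bp of a listed start, against 86.8% of shared ones. The 2688 genes with a 5′ lactate-only peak had a median of 21 CG dinucleotides per promoter and 61.3% G and C. All 17274 promoters had 14 and 56.3%, shared genes had 21 and control-only genes 12. The 8727 genes with none of these peaks had a median of 5. At least 20 CG dinucleotides were found in 54.5% of the lactate-only promoters and in 36.5% of all. Read the other way, a 5′ lactate-only peak was called in 3.39% of genes with 0 to 4 CG dinucleotides and in 24.4% of those with 25 or more, with 19.9% to 23.0% in the classes from 10 to 24. The 1987 genes with no control peak at either end had a median of 20.

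**Figure D3:**
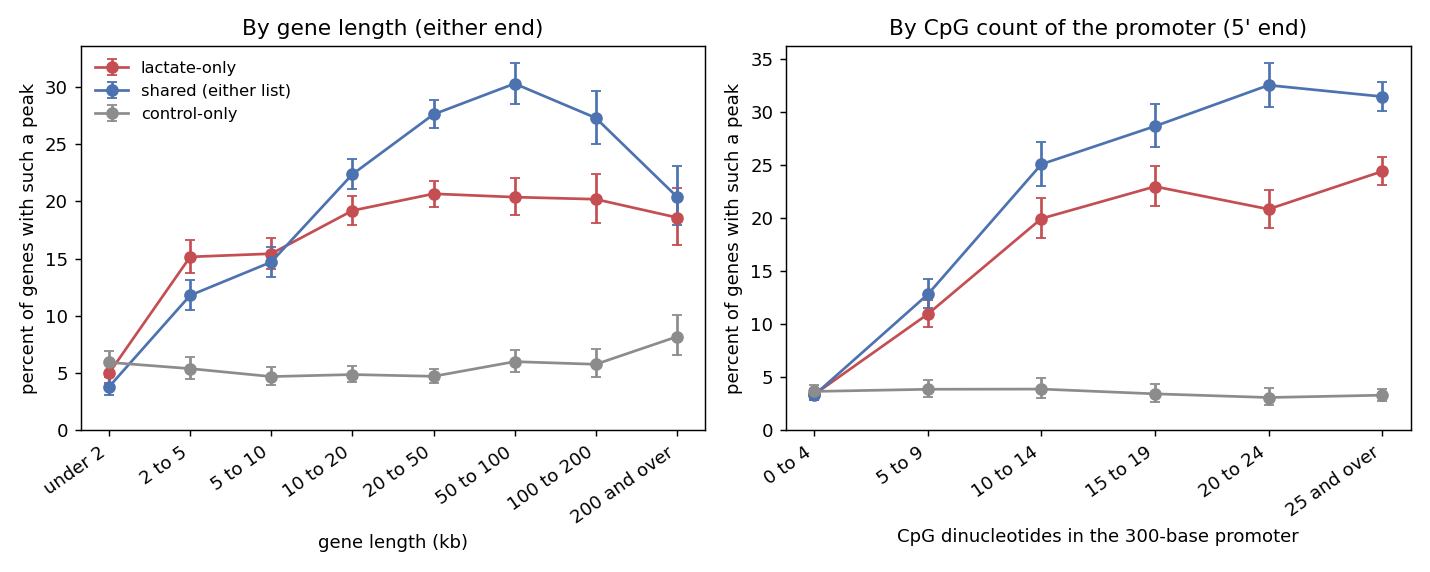
Percent of genes with a lactate-only, shared or control-only peak at one gene end (y axis) by gene length class (left) and, for the 5′ end, by CG dinucleotides in the 300-base promoter (right), with bars for 95% counting intervals. Lactate-only peaks are at 5.00% of genes under 2 kb and at 18.6% of the longest, and they rise from 3.39% in the promoters with 0 to 4 CG dinucleotides to 24.4% in those with 25 or more.

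Short motifs were searched on both strands of the same 300-base promoters, and matches of different motifs may overlap. The GC box GGGCGG is the site of SP1-like factors. It was in 68.3% of the promoters of genes with a 5′ lactate-only peak and 46.9% of all promoters. Shared promoters held it in 67.9% of cases and control-only ones in 46.1%. The ETS motif CCGGAAG was in 16.2% against 12.1% of all, and the NRF1 motif GCGCNTGCG in 13.4% against 9.12%. The YY1 motif AAGATGGCG was in 2.94% against 1.92%, and the cAMP response element TGACGTCA in 3.72% against 2.36%. The CCAAT box CCAAT was nearly equal at 41.0% and 39.6%. The TATA box TATAAA was rarer, in 6.88% against 13.4%. For ETS and NRF1 the shared promoters were higher still, at 19.1% and 16.4%. Among the printed promoters, Sfr1 held 2 GC boxes and 1 NRF1 motif, Trim24 held 4 GC boxes, Sdhb held 3 and 1 ETS motif, and Mtmr6 held none of these letters. The CG content of the promoters moved with the motifs that hold CG, and its part in these shares was not tested. A match is a description of letters, not a bound site.

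Every chromosome carried these peaks. The share of protein-coding genes with one ran from 14.3% on chromosome 7 to 21.0% on chromosome 4, with 20.5% on 18, 20.3% on 12 and 14.6% on X. The share of one-end lactate peaks that met no control peak spread more widely. It was lowest on chromosome 8, at 36.7% (32.6% to 41.0%), and 37.8% on chromosome 1, and highest on X, at 68.2% (61.9% to 73.9%), where 167 of 245 peaks met none. Chromosome 4 followed at 60.6%. Genes with a shared peak were 7.76% on X and 29.9% on chromosome 8. Chromosome 18 had a similar number of one-end lactate peaks to X, 240, of which 54.6% met no control peak. The median local background under the lactate-only peaks was 3.16 reads on X and 6.28 on chromosome 8, and its part in the spread was not tested.

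**Figure D4:**
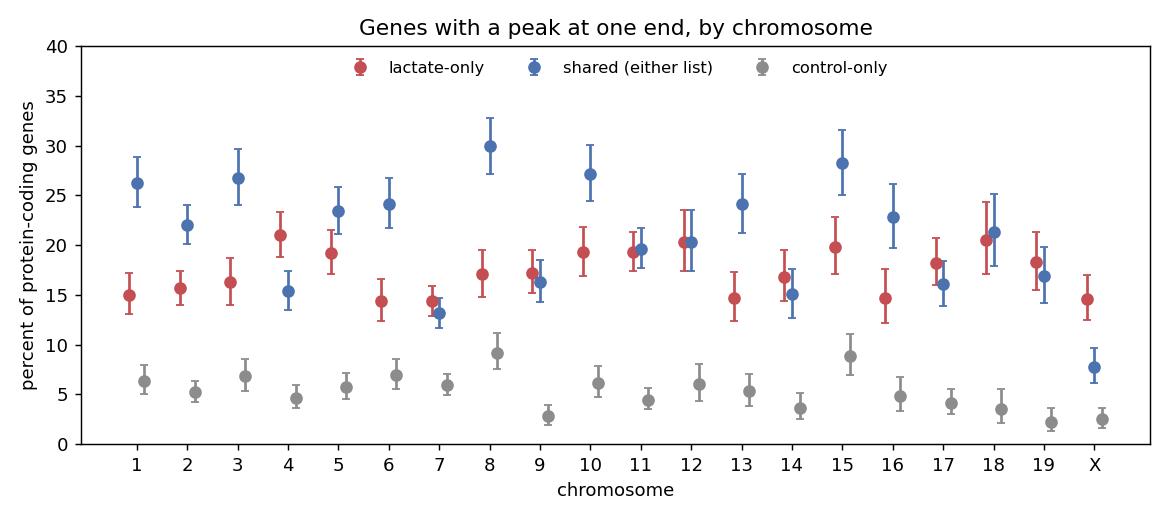
Percent of protein-coding genes with a lactate-only, shared or control-only peak at one end (y axis) by chromosome (x axis, 1 to 19 and X), with bars for 95% counting intervals. Lactate-only points stay between 14.3% and 21.0%, while shared points fall from 29.9% on chromosome 8 to 7.76% on X.

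Of the 12 POMC and secretory granule genes 5 had a lactate-only peak, or 41.7% (15.2% to 72.3%), an interval that holds the 17.2% of all genes. A shared peak lay at 3 of the 12, where 20.4% of all genes had one. POMC is the precursor of melanocortin peptides and beta-endorphin. The Pomc peak, with 26 reads over 617 bp and a fold of 5.40, lay inside the gene at its 3′ end and not at the promoter printed above. It had the highest fold among named genes with a 3′ peak, a comparison chosen after the values were seen. Mid1ip1, a regulator of fat synthesis, came next at 4.93 and C2cd4a at 4.90. The unnamed gene Gm32584, passed over by the rule, had 7.88 at its 3′ end. The convertase genes Pcsk1 and Pcsk2, whose products cut POMC, had 5′ peaks of 18 reads and of 11 and 13 reads. A control peak lay only 135 bp from the Pcsk1 peak, while the next nearest in this list was 10513 bp away, at Scg2. Pcsk1n, the gene of an inhibitor of the Pcsk1 product, had 17 reads across its start and the granule protein gene Scg2 had 12 inside its start. Apart from Pomc, the folds ran from 2.82 to 4.43 and only Pcsk1n also reached a −log10 q of 5.

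Among the other lists, set beside the 17.2% of all genes, chromatin remodelling stood at 14 of 40 genes, or 35% (20.6% to 51.7%). The helicase genes Chd1, with 24 reads across its end, Smarca2 with 21, and Atrx with 17 had folds of 4.55, 4.07 and 4.43. The bromodomain gene Baz1b had 26 reads. Shared peaks were also frequent in that list, at 17 of the 40 genes, where 20.4% of all genes had one. Phosphoinositide kinases and phosphatases had 13 of 46, led by Mtmr6 and by Mtmr10 at a fold of 5.37 and the synaptojanin gene Synj2 at 4.72. The lipid kinase gene Pik3ca had 20 reads, with a control peak 496 bp away. Ubiquitin-conjugating enzymes had 12 of 37, of which only Ube2e2 reached a −log10 q of 5. Shared peaks lay at 19 of the 46 phosphoinositide genes and at 19 of the 37 ubiquitin-conjugating genes. The Ube2e2 peak lay 251 bp from a control peak.

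RNA decay genes had 9 of 41, with Cnot3, a subunit of the CCR4-NOT deadenylase, at 36 reads and the decapping genes Dcp1b and Edc3 at folds of 4.38 and 4.36. Homologous recombination had 7 of 36, where Sfr1 was joined by the helicase-like Rad54l at 4.17 and Brca2 at 4.02. Transport from the endoplasmic reticulum to the Golgi had 7 of 31. Lman1 and Mcfd2, which together carry clotting factors V and VIII in humans, had folds of 6.20 and 3.45. Nuclear pore genes had 5 of 28, with Ndc1 at 4.74, Nup153 at 4.23 and Seh1l at 3.93. A control peak lay 288 bp from the Nup153 peak, and 9459 and 24758 bp from those at Ndc1 and Seh1l. Autophagy had 6 of 32, among them the initiation factor Atg14 at 4.20. Modification of tRNA had 10 of 47 and none reached a −log10 q of 5. Mitochondrial import genes had 4 of 26, with Tomm5 and Tomm7 at 17 reads each. Each list of this paragraph had an interval that held the 17.2% of all genes. A shared peak, found at 20.4% of all genes, lay at 21 of 41 RNA decay and 11 of 36 homologous recombination genes. It lay at 20 of 31 transport, 15 of 28 nuclear pore and 15 of 32 autophagy genes. For tRNA modification the shared count was 11 of 47 and for mitochondrial import 9 of 26. In all 17 lists were counted, several with few genes, and none was tested.

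Gene families were also read from symbols. Genes named Zfp had 93 of 400, or 23.2% (19.2% to 27.7%), against 17.2% of all genes. A shared peak lay at 185 of the 400, where 20.4% of all genes had one. Tripartite motif genes had 14 of 70, or 20% (11.4% to 31.3%), an interval that holds the share of all genes. Trim24, Trim35 and Trim27 had folds of 6.57, 4.60 and 3.82. F-box genes had 8 of 36, or 22.2% (10.1% to 39.2%), which also holds it, with Fbxo47 and Fbxo46 at folds of 6.36 and 4.74. A shared peak lay at 12 of the 70 tripartite motif genes and at 14 of the 36 F-box genes. Odorant receptors, genes that most cells keep silent, had 10 of 1110, or 0.901%, all at 17 reads or fewer. A control-only peak lay at 72 of them, where 5.34% of all genes had one.

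Of 20 noradrenergic neuroblastoma markers 5 had a lactate-only peak, or 25% (8.66% to 49.1%), against 17.2% of all genes. A shared peak lay at 3 of them and a control-only peak at 3, against 20.4% and 5.34% of all genes. With intervals this wide these counts did not set the labelled cell type apart. Elavl4, a neuronal RNA-binding protein, had the highest fold of them at 5.66, followed by Gap43 and Slc18a2, the vesicular monoamine transporter, at 3.36 and 3.35. Phox2a, a sympathetic neuron factor, had 25 reads and Stmn2 18. A control peak lay 474 bp from the Stmn2 peak, 798 bp from Slc18a2 and 864 bp from Gap43. For Phox2a and Elavl4 the gap was 49715 and 83667 bp. Of 24 markers of other cell types only Mbp, a myelin gene, had any peak of these classes at one gene end, with 15 reads. These counts describe chromatin calls and not expression.

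**Figure D5:**
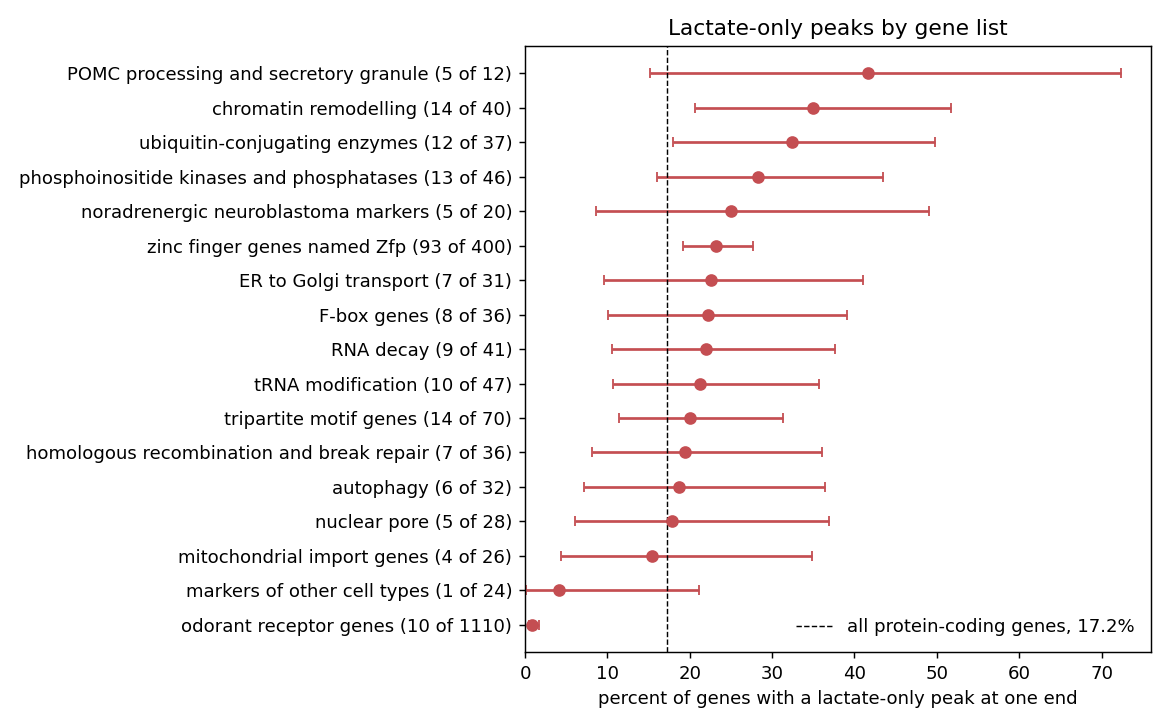
Percent of each gene list with a lactate-only peak (x axis) for the 17 lists (y axis), with 95% counting intervals and a line at 17.2% for all protein-coding genes. POMC processing is highest at 41.7% of 12 genes and odorant receptors lowest at 0.901% of 1110.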

How the data were processed

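H4K12la CUT&Tag was done on 1 control and 1 lactate library of Neuro2a cells. The submitters' processing notes name MACS2, BWA, deepTools and the build mm10. For versions and calling settings, nothing is given in the sources used here. From the authors there is 1 deposited peak list per library. In it the deposited fold is the ratio of summit to local background, the deposited −log10 p and −log10 of q describe the summit, and the deposited score is a scaled −log10 q. The lowest −log10 q was 1.30 in both. Peaks were called within each library, so the lists share no scale of total mark.

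The lists held 46598 control and 39774 lactate peaks, of which 46561 and 39727 lay on chromosomes 1 to 19 and X. Read totals are not in the lists. Pileup was solved from fold and p, whole within 0.001 of the deposited −log10 p for all lactate peaks and 46560 control peaks. The genome background was 2.96 reads with NaCl and 3.06 with lactate.

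Genes and their ends came from RefSeq (GRCm38.p6), with strand for 17274 genes from a table of 32851 RefSeq promoters. The listed start nearest the annotated 5′ end was used, and it coincided with that end in 10370 genes. Peaks at the ends of several genes were left out, which removed 726 lactate-only peaks. Intervals are exact 95% Clopper-Pearson intervals for shares and exact Poisson intervals for pileups. The calculation was tested on simulated data.

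The members, lists and naming rule were chosen with earlier results of these data known. The rule named the 10 members with the highest fold, the 6 widest, the 6 with the highest pileup, the 6 genes with most members, the 3 longest and 3 shortest genes at a −log10 q of at least 5, up to 3 per list by fold and those nearest each limit. Genes with Gm-number or Rik symbols were skipped. Other genes named were chosen after their values were seen. All list entries matched a gene except 1 nuclear pore entry. The alternatives were stricter q thresholds, lists of equal length, windows of 500 bp and 3 kb, other overlap criteria, all gene types and chromosome Y. The tools were numpy 2.4.6, scipy 1.17.1, pandas 2.3.3 and matplotlib 3.10.9 under Python 3.11.15.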

Additional observations from a re-analysis of the deposited data

How the results depend on the processing

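No paired analysis was possible because each group had 1 library and the labels give no replicate numbers. The values as reported were 4308 peaks at 3710 genes, 48.2% of one-end lactate peaks without a control peak, a median width of 220 bp, a median gene length of 22630 bp, 32.5% of peaks across the end and 90.4% at the 5′ end. At a −log10 q of at least 5 they became 772, 765, 19.9%, 435.5 bp, 27908 bp, 65.3% and 97.0%. At a −log10 q of at least 10 they became 34, 34, 4.36%, 569 bp, 32540 bp, 88.2% and 96.6%. With lists of equal length the share without a control peak was 50.7%. A window of 500 bp gave 44.0%, 254 bp, 43.4% across the end and 93.2% at the 5′ end. A window of 3 kb gave 51.2%, 200 bp, 24812 bp, 23.3% and 80.6%. Counting a control peak within 500 bp as overlap gave 40.2%, 231.5 bp, 21615 bp and 36.1%. Counting only overlap over at least 50% of the peak gave 68.4%, 308.5 bp, 24204 bp, 42.1% and 92.2%. All gene types gave 49.9%, 200 bp, 15812 bp, 27.8% and 85.7%. Adding chromosome Y gave 4309 peaks at 3711 genes and a median gene length of 22589 bp. The cause was not tested for any of them.

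With the q threshold at a −log10 of 5, list genes with such a peak numbered 3 in homologous recombination, 1 in ER to Golgi transport, 1 in autophagy, 3 in the nuclear pore, 5 in RNA decay, 4 in chromatin remodelling, 4 in phosphoinositide genes, 0 in tRNA modification, 2 in the POMC list, 1 in the noradrenergic list, 0 in markers of other cell types, 2 in F-box, 3 in tripartite motif, 22 in Zfp, 0 in mitochondrial import, 1 in Ube2 and 1 in odorant receptor genes. No peak of either library was called under 11 reads.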
